A study of Homo sapiens with 8 samples.

Results

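Cadherins are calcium-dependent adhesion proteins that hold neighboring cells together. Their cytoplasmic tails bind catenins, which join classical cadherins to actin, while the desmosomal cadherins bind plakoglobin, plakophilins and desmoplakin, which reach the intermediate filaments. Protocadherins are the largest branch of the superfamily and mostly act in recognition between cells. FAT and Dachsous proteins are giant cadherins that, in flies, pass signals to the Hippo pathway, and CELSR proteins are cadherins of planar cell polarity. In podocytes, FAT1 belongs to the slit diaphragm, the junction that spans the gap between foot processes.

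The 91 loci described here carry names of these families: cadherins (CDH and CDHR), protocadherins (PCDH), FAT, DCHS and CELSR genes, desmocollins (DSC) and desmogleins (DSG), the desmosomal plaque genes DSP, JUP and PKP1 to PKP4, and the catenins CTNNA, CTNNB and CTNND. They were found by name among the 29004 loci of the gene table, and a locus that held several names was counted once. All samples came from 1 stable line of AB8/13 cells, which are immortalized human podocytes. The line carries wild-type LATS2 on a lentiviral pINDUCER construct that doxycycline switches on, and was grown up to 70% confluence at 33 °C, the temperature at which AB8/13 cells divide. LATS2 OE cells (4 samples) received 125 ng/mL doxycycline for 8 h, and untreated cells of the same line (4 samples) received none. Effects of the drug and of LATS2 therefore cannot be told apart. Neither the labels nor the methods say whether the line is a single clone or whether replicates were grown as separate cultures.

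The table holds 1 FPKM value per group, a read count scaled by transcript length and by sequencing depth, pooled by the authors over the 4 samples. The spread between samples is therefore unknown and no test was possible: every difference below compares 2 pooled values, and whether it exceeded the replicate error could not be determined. The depth of the single libraries is unknown. Values below 1 FPKM stand as deposited, but most values of at least 1 FPKM had lost their decimal point, so that a value known by its digits can have 2 or 3 levels that differ by powers of 10. The points of a locus were placed so that the ratio of LATS2 OE to untreated was nearest to 1. Where points were lost, a call of higher or lower also rests on this placing, since a change over 3.16-fold can appear reversed. For such loci the lowest level the digits allow is printed as the lowest reading, and both groups may lie higher by the same power of 10. A locus is called higher or lower when its ratio was at least 1.2-fold, a log2 ratio of 0.26 in size.

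LATS2 itself could not serve as a check of the labels. Its pooled value read 5.31, 53.1 or 531 FPKM in LATS2 OE cells against 2.64, 26.4 or 264 FPKM in untreated cells, and the digits do not settle which pair is right. The placing nearest to 1 gave a ratio of LATS2 OE to untreated of 2.01, while all pairs ran from 0.0201 to 201. Of the podocyte markers, PODXL, SYNPO, CD2AP, ACTN4 and TJP1 had at least 1 FPKM in both groups, and WT1 had 0.412 FPKM in LATS2 OE cells and 0.413 FPKM in untreated cells. NPHS1, the nephrin gene of the slit diaphragm, had 0.00616 FPKM in LATS2 OE cells and 0.00875 FPKM in untreated cells. The endothelial markers were low, with 7 of 8 below 0.1 FPKM in both groups. Markers of other cell types were partly present. At least 1 FPKM in both groups was reached by 4 of 5 parietal epithelial and 4 of 6 mesangial and stromal markers. The same held for 2 of 8 tubular and 1 of 6 leukocyte markers.

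After 8 h of induction the members that reached 1 FPKM in both groups and had ratios farthest from 1 were PCDH10, PKP1, PCDH20 and PKP2, non-clustered protocadherins and plakophilins. PCDH10 and PCDH20 were lower in LATS2 OE cells, 1.80-fold and 1.69-fold. PKP1 was 1.79-fold higher, while its relative PKP2 was 1.53-fold lower. At this level the catenin loci and CDH2, the only classical type I cadherin, were all within 1.2-fold.

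Of the 91 loci, 25 had at least 1 FPKM in both groups. Among these 25, 4 were at least 1.2-fold higher in LATS2 OE cells (JUP, PCDH7, PKP3, PKP1) and 5 were at least 1.2-fold lower (PCDH10, PCDH20, PKP2, PKP4, CDH11). That is 36% of the members, where 12.8% of all 12218 loci of this level class passed the same fold, 6.18% of them higher and 6.57% lower. The median log2 ratio of the 25 members was 0.01, against -0.0041 over all loci of the class. The log2 ratios of 13 members (52%) lay within 0.1 of 0, against 61.1% of all loci of the class. Being chosen with results known, the members allow no test of these shares.

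**Figure D1:**
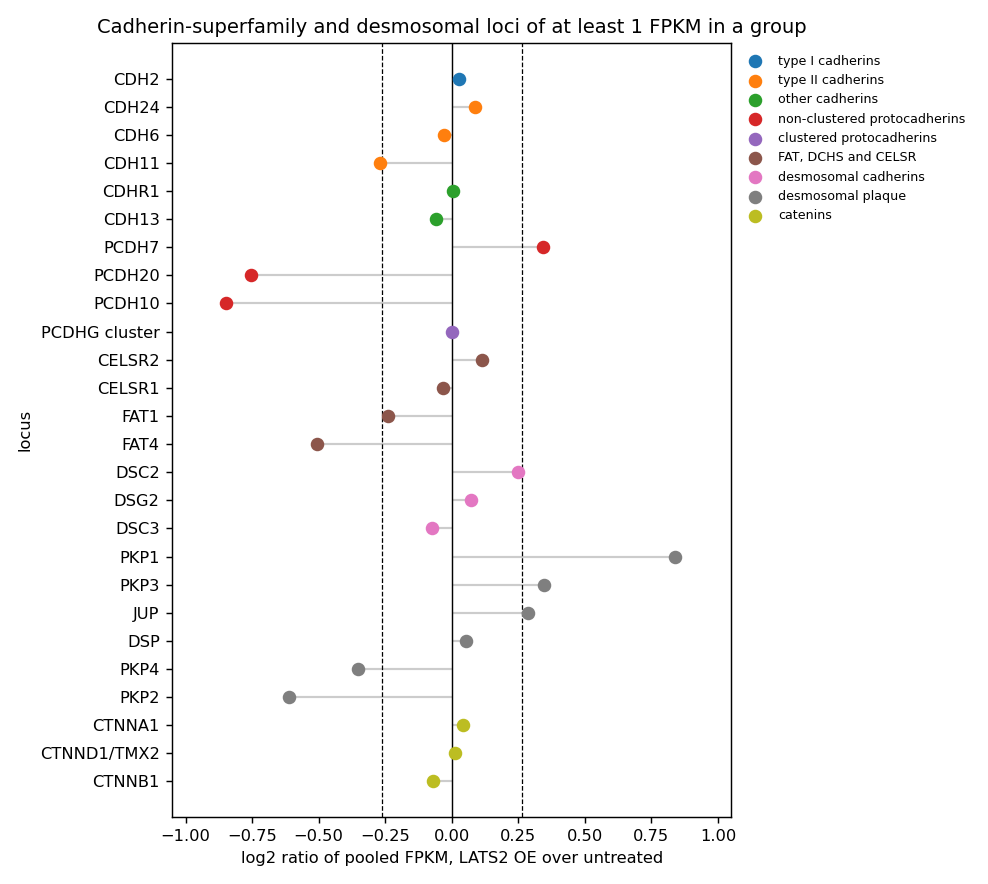
Log2 ratio of pooled FPKM, LATS2 OE over untreated, for the 26 loci of at least 1 FPKM in a group. Each point is 1 locus, colors mark the families, and dashed lines stand at 1.2-fold. PCDH10 at -0.85 and PKP1 at 0.84 lie farthest from 0.

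**Figure D2:**
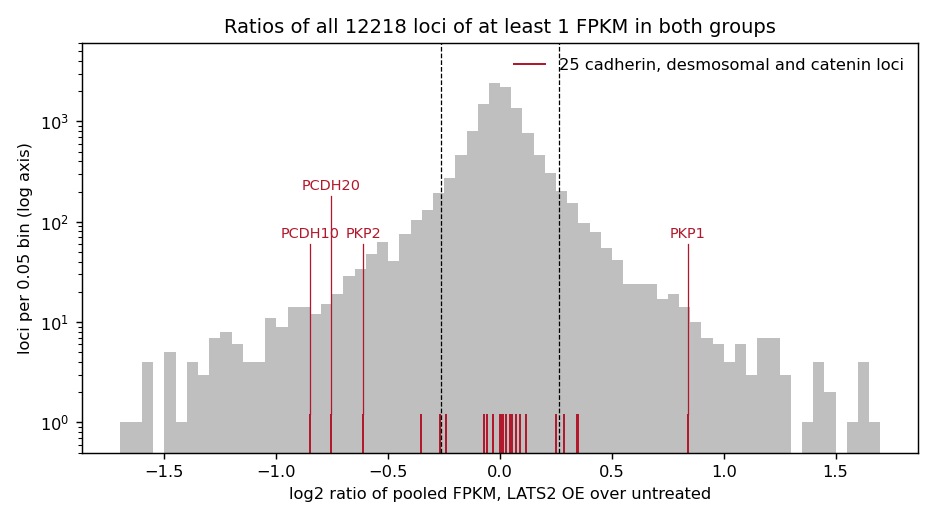
Histogram of the log2 ratio of LATS2 OE to untreated over the 12218 loci whose values reached 1 FPKM in both groups, with a log axis for the number of loci. Red ticks at the base mark the 25 cadherin, desmosomal and catenin loci, and dashed lines stand at 1.2-fold. The outermost members, PCDH10 and PKP1, lie in the tails, and 13 of the 25 lie within 0.1 of 0. The placing of the decimal points keeps the ratio of a locus with several possible levels within 3.16-fold.

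The desmosomal plaque held members on both sides of 1.2-fold. All 6 plaque loci had at least 1 FPKM in both groups, and 3 were higher and 2 lower in LATS2 OE cells. PKP1, a plakophilin of stratified epithelia that clusters desmosomal proteins, had lowest readings of 2.37 FPKM in LATS2 OE cells and 1.33 FPKM in untreated cells. Its log2 ratio of 0.84 exceeded that of 99.4% of the loci of its class. PKP3, the most widely expressed epithelial plakophilin, had lowest readings of 2.27 FPKM in LATS2 OE cells and 1.78 FPKM in untreated cells, a log2 ratio of 0.35. JUP, the gene of plakoglobin, which takes the place of beta-catenin in desmosomes, had lowest readings of 1.24 FPKM in LATS2 OE cells and 1.02 FPKM in untreated cells. Its log2 ratio of 0.29 was just past 1.2-fold.

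PKP2 and PKP4 were the plakophilins that were lower. PKP2, the main plakophilin of heart and simple epithelia, had lowest readings of 5.81 FPKM in LATS2 OE cells and 8.88 FPKM in untreated cells, a log2 ratio of -0.61. Only 1.63% of the loci of the class had a lower ratio. PKP4 (p0071), an armadillo protein of adherens junctions and desmosomes, had lowest readings of 3.11 FPKM in LATS2 OE cells and 3.97 FPKM in untreated cells, a log2 ratio of -0.35. An antisense gene, PKP4-AS1, is annotated on the other strand of PKP4, and the library kit as named does not mark strand, so reads of the pair cannot be told apart. DSP, which encodes desmoplakin, the link to keratin and vimentin filaments, had a log2 ratio of 0.05, with lowest readings of 1.57 FPKM in LATS2 OE cells and 1.51 FPKM in untreated cells. The 4 plakophilin genes alone spanned log2 ratios of -0.61 to 0.84. Genes on the opposite strand are also annotated at DSP, DSC2, DSG2, PCDH7, FAT1, CDH2, CDH6, CDH13, CTNNA1 and CTNNB1, and at the CTNND1 and gamma protocadherin loci. Below 1 FPKM they are annotated at several members, among them PCDH9, DCHS1, FAT3 and PCDHGB8P. The same limit holds for all of these.

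Of the 7 desmosomal cadherins, only DSC2, DSC3 and DSG2 had at least 1 FPKM, and none passed 1.2-fold. DSC2, the desmocollin of simple epithelia and heart, came closest, with lowest readings of 11.03 FPKM in LATS2 OE cells and 9.28 FPKM in untreated cells (log2 ratio 0.25). DSG2, its desmoglein partner, had a log2 ratio of 0.07, with lowest readings of 4.53 FPKM in LATS2 OE cells and 4.32 FPKM in untreated cells. DSC3, a desmocollin of basal epidermis, had a log2 ratio of -0.07, with lowest readings of 6.49 FPKM in LATS2 OE cells and 6.83 FPKM in untreated cells. The epidermal genes DSG1, DSG3, DSG4 and DSC1 were all below 0.1 FPKM, the highest of them DSG3 with 0.0909 FPKM in LATS2 OE cells and 0.0599 FPKM in untreated cells. DSC1 and DSC2 share the coordinates of 1 assembled locus, as do DSG1 and DSG4.

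In RefSeq promoter sequences (GRCh38.p14, 250 bases before to 50 after a gene's start), 14 of the 25 names of members of at least 1 FPKM in a group had an entry, the gamma protocadherins left aside. The E-box CAGGTG, searched on both strands and known as the core bound by SNAI and ZEB repressors of cadherin genes, stood in 4 of the 22 member promoters (18.2%), close to the 20.6% of all 35116 promoters. The 4 were among the 10 promoters of desmosomal genes, with 0 among the 12 other member promoters, and several genes had more than 1 promoter. The core of the TEAD motif, GGAATG on either strand, stood in 0 of the 22 member promoters and in 14.0% of all promoters. PCDH10, PCDH20, PKP2, PKP3 and CDH11, all past 1.2-fold, had no entry, nor had FAT4. Neither motif was searched in these genes, so the shares say nothing on most of the lower members. The 4 desmosomal promoters with an E-box are shown because they belong to JUP, which was higher in LATS2 OE cells, and to DSC2, DSG2 and DSP, which were within 1.2-fold. JUP and DSC2 each have another promoter entry, and it held no CAGGTG. Capitals mark CAGGTG or its reverse complement CACCTG.
JUP, chr17:41785927-41786226 (minus strand): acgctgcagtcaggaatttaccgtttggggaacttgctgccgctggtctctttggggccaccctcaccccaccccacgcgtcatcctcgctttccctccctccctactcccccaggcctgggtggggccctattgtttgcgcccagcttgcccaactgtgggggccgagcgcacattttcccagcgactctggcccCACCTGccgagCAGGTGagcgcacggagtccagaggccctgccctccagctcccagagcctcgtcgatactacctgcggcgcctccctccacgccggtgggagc
DSC2, chr18:31102372-31102671 (minus strand): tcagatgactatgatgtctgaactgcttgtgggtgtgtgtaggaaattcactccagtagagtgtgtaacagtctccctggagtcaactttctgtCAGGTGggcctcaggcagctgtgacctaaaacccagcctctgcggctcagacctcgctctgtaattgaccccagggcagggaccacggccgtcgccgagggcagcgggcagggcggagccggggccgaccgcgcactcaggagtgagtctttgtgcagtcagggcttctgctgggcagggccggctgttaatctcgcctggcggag
DSG2, chr18:31497927-31498226 (plus strand): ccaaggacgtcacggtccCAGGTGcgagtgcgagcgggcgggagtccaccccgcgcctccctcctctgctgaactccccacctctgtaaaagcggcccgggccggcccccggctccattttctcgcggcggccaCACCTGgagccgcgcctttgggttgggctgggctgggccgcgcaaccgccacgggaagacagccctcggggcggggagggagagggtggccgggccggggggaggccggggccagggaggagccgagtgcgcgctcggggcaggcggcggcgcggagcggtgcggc
DSP, chr6:7541421-7541720 (plus strand): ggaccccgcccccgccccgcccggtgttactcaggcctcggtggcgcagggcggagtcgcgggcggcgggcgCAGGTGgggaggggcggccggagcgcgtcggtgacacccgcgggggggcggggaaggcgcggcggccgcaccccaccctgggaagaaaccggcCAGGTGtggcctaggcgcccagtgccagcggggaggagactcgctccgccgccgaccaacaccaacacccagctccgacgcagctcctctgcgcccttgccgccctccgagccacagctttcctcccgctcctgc
A match is a description of these letters and says nothing on whether a factor binds there. The PKP1 promoter, that of the plaque gene with the highest ratio, held neither motif.

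Of the members of at least 1 FPKM, the non-clustered protocadherins PCDH10 and PCDH20 had the lowest ratios. PCDH10, an adhesion protein of the delta-2 group first studied in the brain, had lowest readings of 1.95 FPKM in LATS2 OE cells and 3.51 FPKM in untreated cells. Its log2 ratio of -0.85 was undercut by 0.786% of the loci of the class. PCDH20 had lowest readings of 1.86 FPKM in LATS2 OE cells and 3.14 FPKM in untreated cells, a log2 ratio of -0.75. PCDH7, a delta-1 protocadherin, was higher, with lowest readings of 1.30 FPKM in LATS2 OE cells and 1.03 FPKM in untreated cells (log2 ratio 0.34). PCDH10 and PCDH7 both lie on the plus strand of chromosome 4 of hg19, at 134070445-134129270 and 30722030-31148423, and PCDH20 lies on the minus strand of chromosome 13 at 61982985-61989786. All 3 are protein-coding.

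The other non-clustered protocadherins were below 1 FPKM, where values are printed as deposited. PCDH9 had 0.646 FPKM in LATS2 OE cells and 0.443 FPKM in untreated cells, 1.46-fold higher. PCDH18 had 0.303 FPKM in LATS2 OE cells and 0.180 FPKM in untreated cells, 1.69-fold higher. PCDH12, an endothelial protocadherin, had 0.0711 FPKM in LATS2 OE cells and 0.0808 FPKM in untreated cells. PCDH1, PCDH11X, PCDH17 and PCDH19 were below 0.05 FPKM in both groups, and PCDH8 and PCDH15 were listed at 0. One Y-linked protocadherin locus is counted but its values are not described.

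Among the FAT, Dachsous and CELSR genes the 2 FAT genes of highest level had log2 ratios below 0. FAT4, the mammalian gene closest to the fly fat gene, had 0.988 FPKM in LATS2 OE cells and 1.40 FPKM in untreated cells, 1.42-fold lower, a log2 ratio of -0.51. It was the only member with at least 1 FPKM in a single group and stands outside the 25. Its untreated digits could also read 14.0 FPKM, and the ratio rests on the placing nearest to 1. FAT1, the slit diaphragm cadherin, had lowest readings of 2.56 FPKM in LATS2 OE cells and 3.02 FPKM in untreated cells, 1.18-fold lower, just short of 1.2-fold. FAT3 had 0.166 FPKM in LATS2 OE cells and 0.203 FPKM in untreated cells (log2 ratio -0.29), and FAT2 had 0.338 FPKM in LATS2 OE cells and 0.284 FPKM in untreated cells (log2 ratio 0.25). DCHS1, the Dachsous ligand of FAT4, had 0.227 FPKM in LATS2 OE cells and 0.162 FPKM in untreated cells, 1.40-fold higher, while DCHS2 was below 0.05 FPKM. The CELSR genes were close to equal in both groups, with log2 ratios of -0.03 for CELSR1, 0.12 for CELSR2 and 0.04 for CELSR3. CELSR3, a gene mostly known from neurons, had 0.700 FPKM in LATS2 OE cells and 0.680 FPKM in untreated cells.

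CDH2, which encodes N-cadherin, was the only classical type I cadherin with at least 1 FPKM, and its log2 ratio was 0.03 (lowest readings 8.48 FPKM in LATS2 OE cells and 8.32 FPKM in untreated cells). CDH4, or R-cadherin, followed with 0.804 FPKM in LATS2 OE cells and 0.681 FPKM in untreated cells (log2 ratio 0.24). CDH1, the E-cadherin gene of epithelia, had 0.0133 FPKM in LATS2 OE cells and 0.0257 FPKM in untreated cells. CDH3, or P-cadherin, a cadherin placed at the slit diaphragm, had 0.0012 FPKM in both groups, and CDH15, the muscle cadherin, was listed at 0.0061 FPKM in LATS2 OE cells and at 0 in untreated cells.

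Of 13 type II cadherins, CDH6, CDH11 and CDH24 had at least 1 FPKM. CDH11, a cadherin of mesenchymal cells, had lowest readings of 1.26 FPKM in LATS2 OE cells and 1.52 FPKM in untreated cells, 1.21-fold lower, just past the fold. CDH6, or K-cadherin, known from the developing nephron, had a log2 ratio of -0.03, and CDH24 one of 0.09. The others lay at or below 0.125 FPKM, the highest being CDH10 with 0.125 FPKM in LATS2 OE cells and 0.0992 FPKM in untreated cells and CDH12 with 0.101 FPKM in LATS2 OE cells and 0.0665 FPKM in untreated cells. CDH5, the endothelial VE-cadherin, had 0.0188 FPKM in LATS2 OE cells and 0.0271 FPKM in untreated cells, and CDH9 was listed at 0.

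Among the other cadherins, CDH13 (T-cadherin, which has no cytoplasmic tail) and CDHR1 had at least 1 FPKM, with log2 ratios of -0.06 and 0.01. CDH16, the kidney-specific cadherin of tubular epithelium, had 0.255 FPKM in LATS2 OE cells and 0.118 FPKM in untreated cells, 2.15-fold higher. It was the largest ratio among members of 0.1 to 1 FPKM. The 7 loci CDH17, CDH23, CDH26 and CDHR2 to CDHR5 were below 0.05 FPKM in both groups. Of the other tubular markers, UMOD was listed at 0 and LRP2, CUBN, SLC12A1 and SLC12A3 were below 0.05 FPKM in both groups, while AQP1 and EPCAM had at least 1 FPKM and log2 ratios of -0.04 and 0.13.

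The 3 catenin loci of at least 1 FPKM were within 1.2-fold. CTNNB1, the gene of beta-catenin, had 170 FPKM in LATS2 OE cells, as placed nearest to 1, and 179 FPKM in untreated cells, where the point was kept (log2 ratio -0.07). CTNNA1, the alpha-catenin of most tissues, had a log2 ratio of 0.04. The locus that holds CTNND1, the gene of p120-catenin, also carries the name of its neighbor TMX2, so that its log2 ratio of 0.01 cannot be given to CTNND1 alone. CTNNA2, CTNNA3 and CTNND2, catenins of brain and heart, were below 0.05 FPKM in both groups.

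The clustered protocadherins lie in 3 tandem arrays on chromosome 5, where neurons choose among many alternative first exons. The alpha and gamma arrays each form 1 row of the table, with 15 and 22 gene names, and single isoforms cannot be told apart. The gamma row had at least 1 FPKM and nearly equal values, with lowest readings of 4.26 FPKM in both groups (log2 ratio -0.00099). The alpha row had 0.0811 FPKM in LATS2 OE cells and 0.0664 FPKM in untreated cells. PCDHGB8P, a pseudogene inside the gamma locus that shares its coordinates, had 0.126 FPKM in LATS2 OE cells and 0.196 FPKM in untreated cells.

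The 19 beta rows, single-exon genes and pseudogenes that are very alike in sequence and can share reads, were all low. PCDHB13 was the highest, with 0.123 FPKM in LATS2 OE cells and 0.132 FPKM in untreated cells, followed by PCDHB14 with 0.0893 FPKM in LATS2 OE cells and 0.0913 FPKM in untreated cells. LATS2 OE cells had the higher value in 10 rows and the lower value in 8, and PCDHB1 was listed at 0 in both groups. Summed over the 19 rows, the level was 0.672 FPKM in LATS2 OE cells and 0.632 FPKM in untreated cells. The rows did not share a direction.

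**Figure D3:**
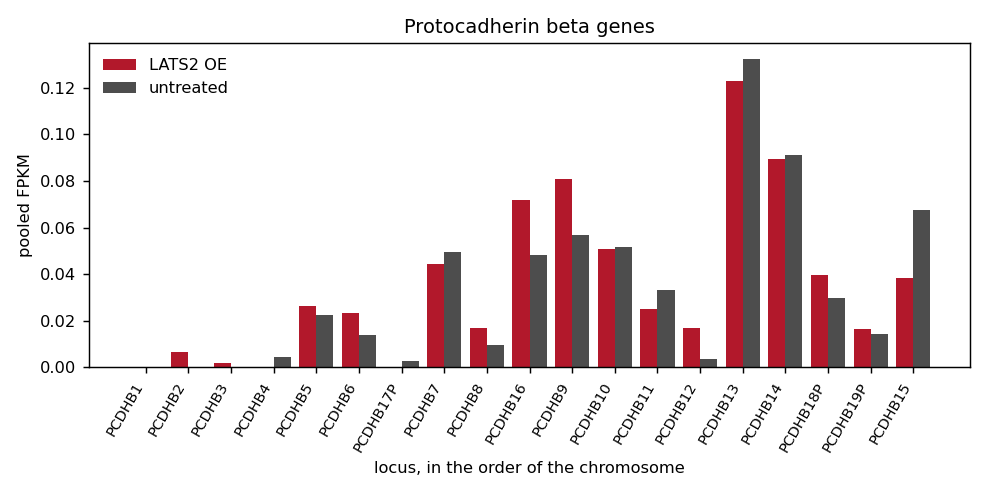
Pooled FPKM of the 19 protocadherin beta rows in LATS2 OE (red, left bars) and untreated cells (gray, right bars), in chromosomal order. Each bar is the authors' single pooled value, without an error, and no bar exceeds the 0.132 FPKM of PCDHB13 in untreated cells.

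Below 1 FPKM the ratios spread widely over all loci, so single ratios say less. Of 11 members of 0.1 to 1 FPKM in both groups, 6 passed 1.2-fold (54.5%), where 49.5% of all 4204 loci of this class did. The 4 higher ones were PCDH9, DCHS1, PCDH18 and CDH16, and the 2 lower ones FAT3 and PCDHGB8P. Of 42 members above 0 in both groups with less than 0.1 FPKM in a group, 30 passed (71.4%), where 73.7% of all 3876 such loci did. Both shares were close to those of all loci. Another 8 members were listed at 0 in 1 group and 4 (PCDHB1, PCDH8, PCDH15 and CDH9) in both.

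**Figure D4:**
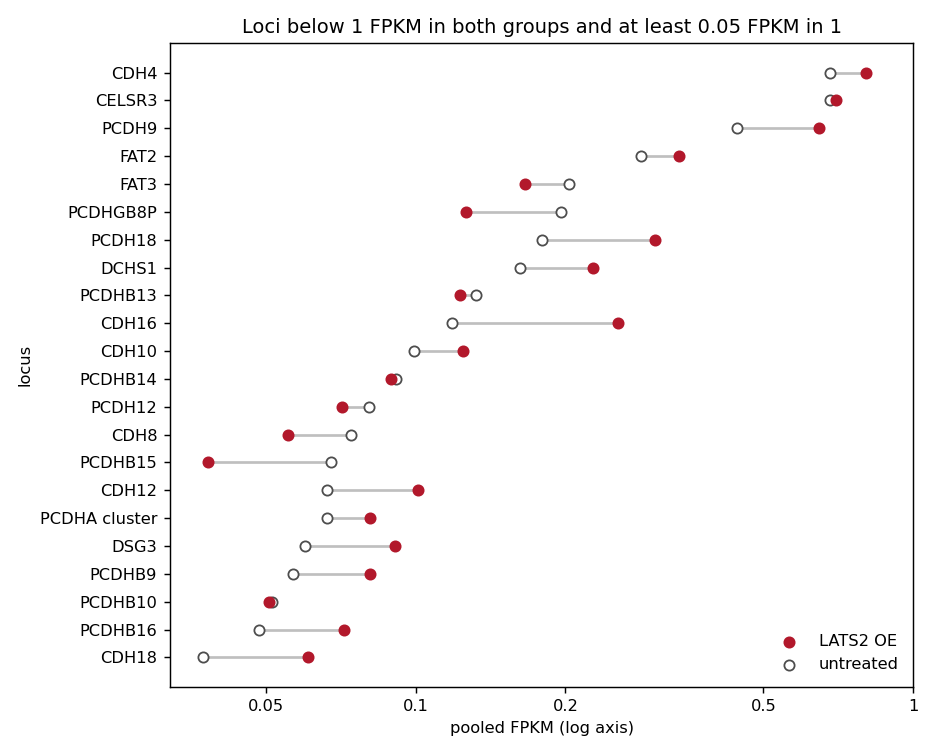
Pooled FPKM on a log axis for the 22 loci below 1 FPKM in both groups and of at least 0.05 FPKM in 1, the Y-linked locus left out. Filled red points are LATS2 OE, open points untreated cells, and each locus has 1 value per group. LATS2 OE lies to the right in 14 loci and to the left in 8. Low loci leaned the same way in general. The median log2 ratio over all loci of 0.1 to 1 FPKM in both groups was 0.047. Over all loci above 0 in both groups with less than 0.1 FPKM in a group it was 0.15.

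Of further genes of these junctions, taken from lists of known partners, 6 of 56 that reached 1 FPKM in both groups passed 1.2-fold (10.7%), close to the 12.8% of all loci of the class. These 6 were all lower in LATS2 OE cells, where 6.57% of all loci of the class were lower and 6.18% higher. Being chosen with results known, the lists allow no test of this. Among 19 adherens junction partners, 0 were higher and 2 lower, AJUBA, a LIM protein that binds LATS kinases and alpha-catenin, with a log2 ratio of -0.96 and EZR, which ties membranes to actin, with -0.35. Among 16 FAT, Dachsous and planar polarity partners, FJX1, the counterpart of the fly kinase gene four-jointed that modifies FAT and Dachsous, and PRICKLE1, a cytoplasmic polarity protein, were lower, with log2 ratios of -1.004 and -0.94. Among 10 relatives of the desmosomal plaque and its filaments, EVPL (envoplakin) and KRT7 were lower, with log2 ratios of -0.42 and -0.30. Among 11 genes of cadherin cutting and turnover, 0 passed in either direction. Median log2 ratios of these lists were -0.08, -0.0065, 0.03 and -0.0023, against -0.0041 over all loci of the class.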

How the data were processed

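RNA of 4 LATS2 OE and 4 untreated samples of the AB8/13 line was sequenced by the authors after poly(A) selection. The submitters' processing notes name bcl2fastq, FastQC, Trimmomatic (0.33), TopHat, Cufflinks and the build hg19, without their settings. The annotation used is unknown here. The authors deposited 1 table of FPKM values pooled per group, and its fold change, statistic, p, q and significance columns, which hold the authors' own comparison, were not used. Groups follow the table's control and treatment labels.

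Cells of at least 1 that had 3 or more decimals had lost their point. A 6-digit cell can thus stand for 3 levels. The pair of readings whose ratio was nearest to 1 was taken. A change over 3.16-fold is thereby shown as a smaller one, and it can appear in the opposite direction. How many loci exceeded that limit is unknown here. Ratios have no pseudocount. Loci that reached 1 FPKM in both groups formed the main class, with 1.2-fold as the call. Fold, level floor, pseudocount, centring and several-name loci were varied. Members of the main class, and those of 0.1 to 1 FPKM past the fold, were named, with up to 4 genes past the fold per list, and lower members mostly by count and range. Members and lists were chosen with earlier results of these data known. Starts of loci are printed 1-based. Strand comes from GENCODE on the same build. Python 3.11.15, pandas 2.3.3 and matplotlib 3.10.9 were used.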

Additional observations from a re-analysis of the deposited data

How the results depend on the processing

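No paired analysis was possible because the deposited columns hold 1 pooled value per group and carry no replicate, and for the same reason no sample could be left out in turn. The counts of members past the fold, 4 higher and 5 lower, depend on the floor and the fold. With a floor of 0.1 FPKM they were 8 and 8, and with no floor 27 and 19, which is 43.2% and 58.2% of the members, against 23.1% and 32.6% of all loci. These shares mix level classes. With no floor, 42 of the 79 members but 3876 of the 20636 loci had less than 0.1 FPKM in a group. Within that class 71.4% of members and 73.7% of all loci passed. From 0.1 to 1 FPKM in both groups 54.5% and 49.5% did. At 1.5-fold 1 member was higher and 3 were lower (16% of the members, against 3.15% of all loci), at 2-fold 0 and 0 (against 0.835% of all loci), and 3 of the other pathway genes passed 1.5-fold in place of 6 at 1.2-fold. With a pseudocount of 1 FPKM at the lowest reading 1 member was higher and 4 were lower (20%, against 7.95% of all loci), as the added FPKM shrinks the ratios of loci read near 1 FPKM. Both counts stayed within 1.5 times when ratios were centred on the median of all loci. The same held when loci with several names or with log2 ratios over 1 were left out. It also held with a pseudocount of 0.1 FPKM and with a fold of 1.1. At 1.1-fold, however, 44% of the members passed against 28.76% of all loci. Members were thus closer to all loci than at 1.2-fold, where 36% and 12.8% passed. With a pseudocount of 0.1 FPKM the shares were 28% and 12.1%. The median log2 ratio of the members stayed between 0.0033 and 0.03 under every alternative that changes it. Of the 9 members past the fold, PKP3, JUP, PCDH7, PKP4 and CDH11 fell short of 1.5-fold. With a pseudocount of 1 FPKM, PKP3, JUP, PCDH7 and CDH11 fell short of 1.2-fold. JUP and CDH11 already did so with a pseudocount of 0.1 FPKM, which left 3 members higher and 4 lower. Another fold or an equal pseudocount in both groups cannot change a direction, and centring moves all ratios by the same small amount. None of these alternatives changed the placing of the points, on which directions at loci with lost points rest. The gamma protocadherin row, within the fold, had log2 ratios of -0.00099 and, when centred, 0.0031. The lost decimal point and the missing spread between samples limit every value of at least 1 FPKM.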
